A study of Homo sapiens with 8 samples.

Results

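TXNIP, ARRDC3, ARRDC4, MLXIP and SLC16A7 are 5 genes of glucose sensing and fuel handling, taken by name from the 23354 genes of an RNA sequencing table of human mesenchymal stromal cells. They were named with the values of unfrozen cells in view, namely cells at 0 h, after 1 h in medium and after 1 h with DMSO. Those 3 libraries are therefore described here for these genes and not tested. The genes were also chosen with earlier results of these data known, so no contrast among the 8 libraries is free of that choice. The stromal cells had been made from the established embryonic stem cell line H9, and the study compared freezing in DMSO with freezing in multicomponent osmolyte solutions. There were 8 libraries: 3 from fresh cells, 2 from cells that had been frozen with DMSO after 0 h or 1 h in it, and 3 from cells frozen in osmolyte solutions. The osmolyte solutions are labelled SMC, held for 2 h, and SGC and SGI, each held for 1 h, where a hold is time at room temperature before freezing, and RNA was taken after thawing. The cooling rate differed between osmolyte solutions and DMSO, unfrozen cells in SMC, SGC or SGI are not among the 8 libraries, and all cells came from a single line. Solution, cooling rate and freezing thus cannot be told apart in the osmolyte libraries.

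TXNIP, the thioredoxin-interacting protein, belongs to the alpha-arrestins, adaptor proteins that bring ubiquitin ligases of the NEDD4 family to membrane proteins. It binds thioredoxin, and it lowers glucose uptake by drawing the glucose transporter GLUT1, the product of SLC2A1, off the cell surface. Its gene is switched on by MondoA, the product of MLXIP, which pairs with MLX and enters the nucleus when glucose 6-phosphate accumulates. MondoA binds a pair of E-boxes called the carbohydrate response element. ARRDC4 is an alpha-arrestin under the same control, while ARRDC3 is an alpha-arrestin best known for sorting the beta-2 adrenergic receptor and integrin beta 4. SLC16A7 encodes MCT2, a transporter that carries pyruvate and lactate across the membrane with high affinity.

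The upstream sequences of TXNIP and ARRDC4 are shown because the carbohydrate response element lies in this window in TXNIP, and because both genes were lowest in the same library. They are the 250 bases before the annotated start, 5′ to 3′ on the gene's strand, from RefSeq in build GRCh38.p14. Capitals mark the box pair, which is CACGNG, any 5 bases and CACGNG again, the single box CACGTG and the CCAAT box, searched on both strands, so that a CCAAT box on the other strand reads ATTGG.
TXNIP, chr1:145996580-145996829, minus strand: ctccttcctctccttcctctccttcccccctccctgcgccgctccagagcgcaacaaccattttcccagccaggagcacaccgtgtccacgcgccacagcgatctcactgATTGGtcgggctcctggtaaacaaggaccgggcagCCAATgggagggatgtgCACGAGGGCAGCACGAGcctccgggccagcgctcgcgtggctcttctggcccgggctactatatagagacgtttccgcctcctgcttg
ARRDC4, chr15:97960453-97960702, plus strand: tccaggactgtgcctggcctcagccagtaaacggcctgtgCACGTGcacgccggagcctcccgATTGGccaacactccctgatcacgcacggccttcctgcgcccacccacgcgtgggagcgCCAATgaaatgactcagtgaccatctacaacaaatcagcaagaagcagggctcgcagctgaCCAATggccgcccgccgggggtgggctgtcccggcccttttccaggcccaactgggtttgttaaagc

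The box pair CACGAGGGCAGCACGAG of TXNIP ran from 88 to 72 bases before the start. A match to the pair was present in 16 of 35116 upstream windows of this length, or 0.0456%. The pattern searched has the form of the TXNIP element, so the match in TXNIP is no finding. A window without a match may still hold such an element in another form. CACGTG was found in 6.34% of windows, among them that of ARRDC4, where it began 210 bases before the start. A CCAAT box, at 32% of windows, was found at 2 positions in TXNIP, 3 in ARRDC4, 1 in a window of ARRDC3 and 1 in MLXIP. The 8 windows of the 5 genes held no other match to these letters, and SLC16A7 had none. Of the 16 genes with the box pair, 13 were expressed enough to be tested. The log2 ratio of medium to 0 h lay between -0.24 and 0.68 for the 12 of these other than TXNIP. That of TXNIP, -1.23, is among the values that chose it, so its place below them is no finding. GFPT1, which starts the hexosamine pathway and was chosen from those 12 after its values were seen, had 190.0 CPM at 0 h, 172 CPM in medium and 188 CPM with DMSO. In osmolyte-frozen against DMSO-frozen cells its log2 fold change was -0.42 (adjusted p = 0.00119 by the edgeR test given below). RCN3, also of those 12, went the other way, at 0.36 (edgeR adjusted p = 0.00722), and the others of the 12 did not pass.

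Counts summed to between 41198716 and 51166666 per library. Levels are given in CPM, a gene's counts relative to the library's total after TMM scaling, and all 5 genes passed the filter on low counts. The labelled cell type was matched by its markers: all 7 stromal markers were present, with a summed level of 31446 to 46942 CPM. Nearly all of the sum over these 7 was COL1A1, at 28943 to 45246 CPM. Of these 7, ALCAM, CD44, ENG and NT5E were lower in every osmolyte-frozen library than in every other, such as CD44 at 254 to 277 CPM against 464 to 584 CPM. THY1 was higher in every osmolyte-frozen library, at 260.4 to 299.6 CPM against 227 to 259 CPM in the rest, and COL1A1 and PDGFRB overlapped between osmolyte-frozen and DMSO-frozen libraries. The 6 pluripotency markers summed to 7.33 to 8.60 CPM in fresh, 6.87 to 7.38 CPM in DMSO-frozen and 10.5 to 13.7 CPM in osmolyte-frozen libraries. POU5F1 was highest in the last, at 4.35 to 5.51 CPM, and SOX2 was at 0 in 4 of 8 libraries. Summed blood, endothelial and epithelial markers were also above the DMSO-frozen range in all 3 osmolyte-frozen libraries, at 2.17 to 2.49, 2.20 to 2.68 and 549 to 606 CPM against 1.71 to 2.01, 2.05 to 2.10 and 498 to 508 CPM. In fresh libraries these sums were 1.82 to 2.33, 1.46 to 2.43 and 519 to 565 CPM. The blood marker HLA-DRA was at 0 in all libraries, PTPRC was at most 0.174 CPM, and nearly all of the epithelial sum was KRT18. The part of these differences in the results below was not tested, and in bulk RNA fewer cells of a type and less RNA per cell cannot be told apart.

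Compared per length by the authors' RPKM values, TXNIP was the most abundant of the 5 genes, with a median of 25.4 RPKM over the 8 libraries and a range of 10.1 to 29.98 that overlapped that of ARRDC3 only through fresh cells in medium. ARRDC3 had a median of 9.58 RPKM and MLXIP of 8.13 RPKM, and the ranges of these neighbours overlapped, at 6.56 to 11.5 and 5.10 to 9.54. SLC16A7 followed with 1.20 RPKM and a range of 0.52 to 1.71. ARRDC4 was lowest, with a median of 0.480 RPKM and a range of 0.261 to 0.816 that overlapped the range of SLC16A7. MLX, the partner of MondoA, had a median of 8.39 RPKM, and MLXIPL, which encodes the MondoA relative ChREBP, was too weakly expressed to be tested.

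**Figure D1:**
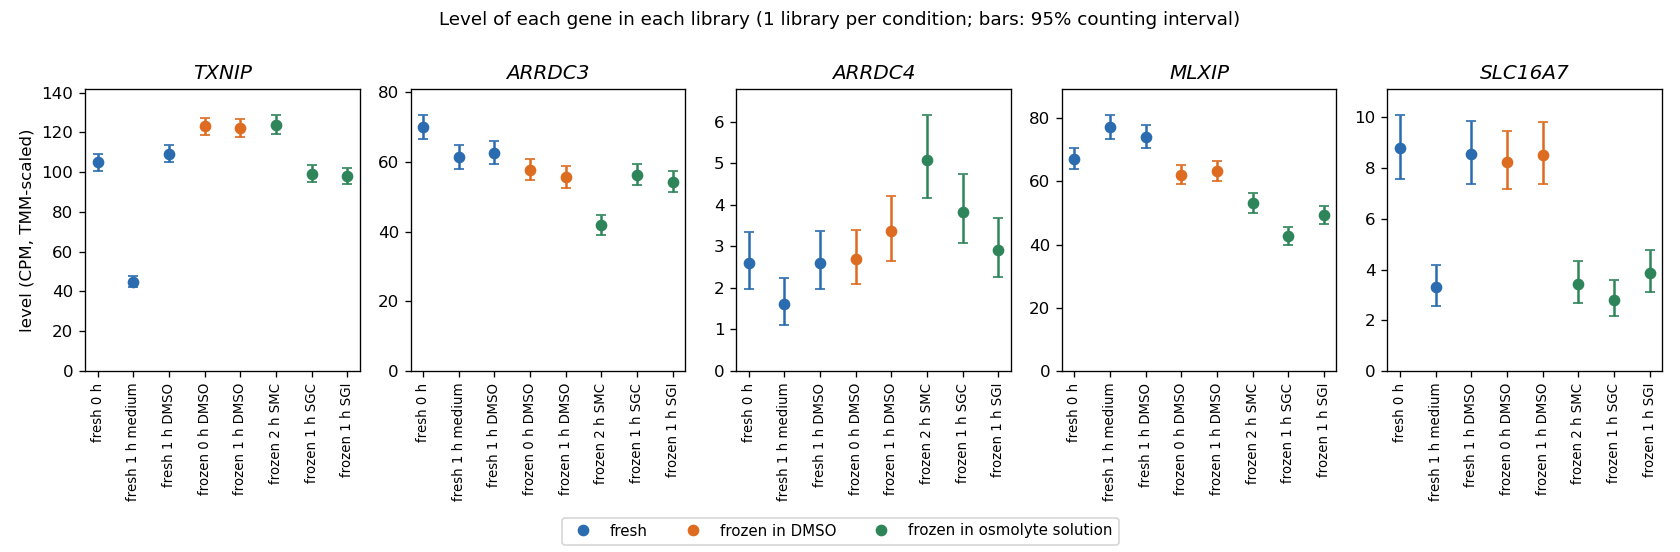
Level of each of the 5 genes in each of the 8 libraries (x axis) in CPM (y axis, from 0), coloured by fresh, DMSO-frozen and osmolyte-frozen cells; bars are 95% counting intervals of single libraries. TXNIP is at 44.9 CPM in fresh cells after 1 h in medium and between 97.8 and 124 CPM in the other 7 libraries, while SLC16A7 is low in that library and in all 3 osmolyte-frozen ones.

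In fresh cells, TXNIP stood at 105 CPM at 0 h, 44.9 CPM after 1 h in medium and 109 CPM after 1 h with DMSO. The library in medium was apart from the other two, whose 95% counting intervals, 101 to 109 and 105 to 114 CPM, overlapped. Its log2 ratio to 0 h was -1.23 (95% counting interval -1.34 to -1.12), or 2.34-fold lower, and counting TXNIP itself 24 genes of 12942 with enough counts were as low or lower. DMSO over medium gave 2.43-fold higher, and DMSO over 0 h gave 1.04-fold. These ratios chose the gene, each condition is 1 library, and the counting interval leaves out variation between cultures. In hg19 the gene lies on chromosome 1 from 145438462 to 145442628, where the spans of 5 other entries in the table overlap it.

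SLC16A7 had 8.78 CPM at 0 h, 3.30 CPM in medium and 8.56 CPM with DMSO in fresh cells. The transporter gene was thus also lowest in medium, at 2.64-fold below 0 h with a log2 ratio of -1.40 (95% counting interval -1.83 to -1.01). Its libraries at 0 h and with DMSO differed by 1.03-fold. ARRDC4 had 2.60 CPM at 0 h, 1.60 CPM in medium and 2.59 CPM with DMSO, which made it 1.60-fold lower in medium than at 0 h. The interval of its log2 ratio, -1.36 to -0.06, was wide because the count was 66 in medium. SLC16A7 lies on chromosome 12 from 60083126 to 60175408 and ARRDC4 on chromosome 15 from 98503933 to 98517068, and no other entry overlaps either.

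ARRDC3 and MLXIP kept nearer to their starting level in fresh cells. ARRDC3 had 69.8 CPM at 0 h, 61.3 CPM in medium and 62.5 CPM with DMSO, so both 1 h libraries were slightly below 0 h and differed from each other by 1.02-fold. MLXIP had 67.2 CPM at 0 h, 77.1 CPM in medium and 74.1 CPM with DMSO, so the gene for MondoA was 1.15-fold higher in the library in which TXNIP was lowest. ARRDC3 lies on chromosome 5 from 90664541 to 90679149 and MLXIP on chromosome 12 from 122516652 to 122628967. LOC100129716 overlaps ARRDC3. The strand setting of the counts is not given in the sources used here, so reads of these overlapping genes may be shared.

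Of the 5 genes, 2 were at least 2-fold lower in medium than at 0 h, against 0.417% of the 12942 genes that had 50 or more counts in whichever library was higher. The same genes were at least 2-fold higher with DMSO than in medium, against 0.466% of genes. Nothing can be read from these shares, since the same values chose the genes. With DMSO against 0 h, 0 of 5 were 2-fold apart in either direction, against 0.716% of genes. The 3 ratios share libraries and are not independent of each other.

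**Figure D2:**
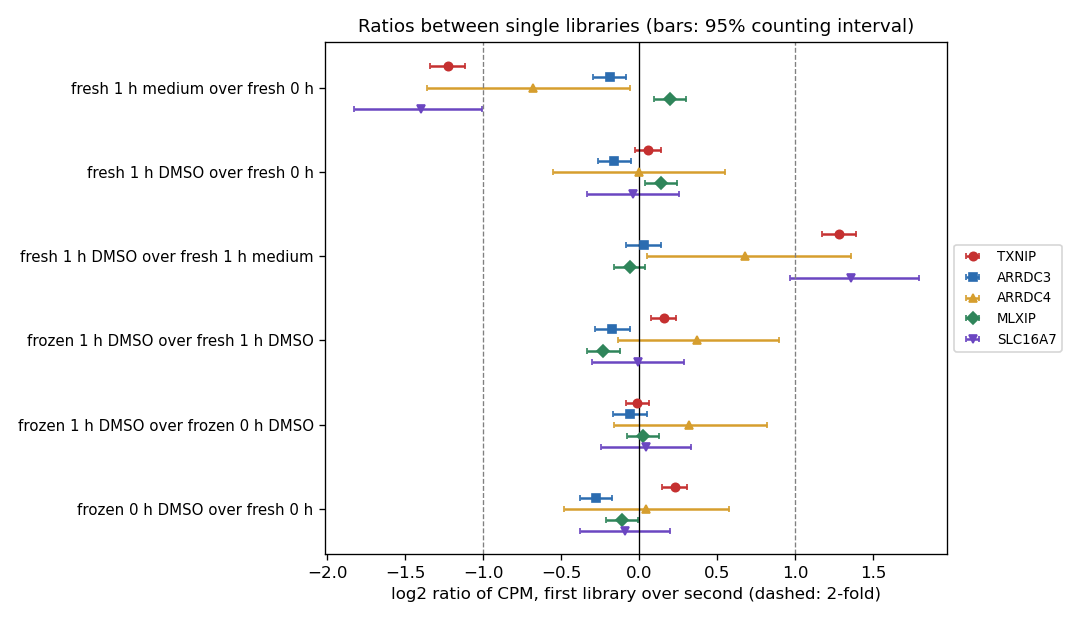
Log2 ratios of CPM between pairs of single libraries (y axis) for the 5 genes (symbols); bars are 95% counting intervals and dashed lines mark 2-fold. TXNIP and SLC16A7 lie at -1.23 and -1.40 for medium over 0 h, and within 0.23 of 0 in the 4 pairs without the fresh library in medium.

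In DMSO-frozen cells the 5 genes differed little between the libraries held for 0 h and 1 h. TXNIP had 123 CPM at 0 h and 122 CPM at 1 h. ARRDC3 had 57.7 and 55.5 CPM, MLXIP 62.2 and 63.2 CPM, SLC16A7 8.25 and 8.53 CPM, and ARRDC4 2.69 and 3.37 CPM. Every 95% counting interval of the log2 ratio of 1 h to 0 h included 0, with the widest, for ARRDC4, running from -0.16 to 0.82. In this pair 0 of 5 genes were 2-fold apart, against 0.39% of 13075 genes.

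Frozen cells were set beside fresh cells at matched time with DMSO. At 1 h TXNIP was higher in the frozen library by a log2 ratio of 0.16 (95% counting interval 0.08 to 0.24), at 122 against 109 CPM. ARRDC3 was 1.13-fold lower and MLXIP 1.17-fold lower in the same pair, while SLC16A7 was level at 8.53 and 8.56 CPM. At 0 h, where the fresh library had no DMSO, TXNIP was 1.17-fold higher and ARRDC3 1.21-fold lower in the frozen library. In neither pair were any of the 5 genes 2-fold apart, against 0.995% of genes at 1 h and 1% at 0 h.

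Over all 3 fresh libraries, TXNIP averaged 86.3 ± 36.0 CPM (SD, n = 3), and the library in medium was the low one. The DMSO-frozen mean, 122 ± 0.714 CPM (SD, n = 2), was 1.42 times the fresh mean, and 1.14 times without the library in medium. The osmolyte-frozen mean, 107 ± 14.6 CPM (SD, n = 3), was 1.24 times the fresh mean, and 0.999 times without that library. For SLC16A7 the osmolyte-frozen mean was 3.37 ± 0.528 CPM (SD, n = 3). That was 2.04-fold below the fresh mean of 6.88 ± 3.10 CPM (SD, n = 3), and 2.58-fold below it without the library in medium. MLXIP was 1.505-fold lower in osmolyte-frozen than in fresh cells and ARRDC3 1.27-fold lower, while ARRDC4 was 1.74 times the fresh mean. All these ratios use the fresh values that chose the genes. Differences between these groups were common: by edgeR, 2968 of 15924 genes were higher and 3301 lower in osmolyte-frozen than in fresh cells.

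Osmolyte-frozen cells were compared with DMSO-frozen cells, a contrast that does not use the levels of fresh cells. This contrast is still not free of the choice of genes, which was made with earlier results of these data known. SLC16A7 and MLXIP were lower in osmolyte-frozen cells, and the 3 arrestins did not pass the test. SLC16A7 was 2.49-fold lower, at 3.42 CPM in SMC, 2.81 CPM in SGC and 3.86 CPM in SGI against 8.53 and 8.25 CPM in DMSO at 1 h and 0 h. All 3 osmolyte libraries were below both DMSO libraries, and near the level of fresh cells in medium, 3.30 CPM. MLXIP was 1.30-fold lower, at 53.03, 42.7 and 49.4 CPM in the same order against 63.2 and 62.2 CPM, again without overlap.

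By edgeR's quasi-likelihood test with Benjamini-Hochberg adjustment over 15924 genes, the log2 fold change of SLC16A7 was -1.32 (SE 0.39, adjusted p = 0.0437). The same edgeR test gave MLXIP -0.37 (SE 0.09, adjusted p = 0.00530). So 2 of 5 genes passed in the lower direction, against 16.2% of all genes, and 0 in the higher direction, against 13.1%. Because of how the genes were chosen, these shares are a description only. With 1 library per condition, and no word in the labels on separate cultures, p-values measure only the spread between these libraries. Within a group that spread mixes differences of solution and hold time with variation that may be technical. The SDs over a group do so too, since its libraries are not replicates of 1 condition.

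MLXIP passed under all 15 alternatives tried, with an edgeR or DESeq2 adjusted p of 0.000542 to 0.0404, and SLC16A7 under 6 of 15. The fit takes its spread also from the fresh libraries, and SLC16A7 differed widely among them. With the 5 frozen libraries alone its edgeR log2 fold change was again -1.32, with an adjusted p of 1.59e-06, and without the fresh library in medium the adjusted p was 1.39e-06. Leaving out any one of the 5 frozen libraries ended the call, with edgeR adjusted p from 0.0857 without SGI, 0.108 without SMC and 0.122 without SGC to 0.157 and 0.176 without DMSO at 1 h and at 0 h.

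TXNIP had 124 CPM in SMC, 99.2 CPM in SGC and 97.8 CPM in SGI against 122 and 123 CPM in DMSO. The 2 libraries held for 1 h in osmolyte solutions were below both DMSO libraries, and SMC, held for 2 h, was level with them. The edgeR log2 fold change was -0.20 (SE 0.40, adjusted p = 0.748), with a 95% interval of -1.20 to 0.81 that a 2-fold fall would lie within. Without the fresh library in medium the edgeR log2 fold change was again -0.20, with an adjusted p of 0.106.

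ARRDC3 had 41.8 CPM in SMC, 56.3 CPM in SGC and 54.2 CPM in SGI against 55.5 and 57.7 CPM in DMSO, so the low value was that of SMC. Its edgeR log2 fold change was -0.16 (95% interval -0.38 to 0.07, adjusted p = 0.286). ARRDC4 had 5.08, 3.84 and 2.91 CPM in SMC, SGC and SGI against 3.37 and 2.69 CPM in DMSO, with overlapping groups. Its log2 fold change by edgeR was 0.38 (95% interval -0.14 to 0.90, adjusted p = 0.259), and it came to -0.00 among frozen libraries held for 1 h. In SMC the 3 arrestins thus went apart, with the highest TXNIP and ARRDC4 levels and the lowest ARRDC3 level of the osmolyte libraries. SMC also differs from SGC and SGI in hold time, and as 1 library this has no replicate check. LOC100129716, which overlaps ARRDC3, had 7.71 ± 0.425 CPM (SD, n = 3) in osmolyte-frozen and 4.08 ± 0.205 CPM (SD, n = 2) in DMSO-frozen cells, and its part in the ARRDC3 values was not tested.

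**Figure D3:**
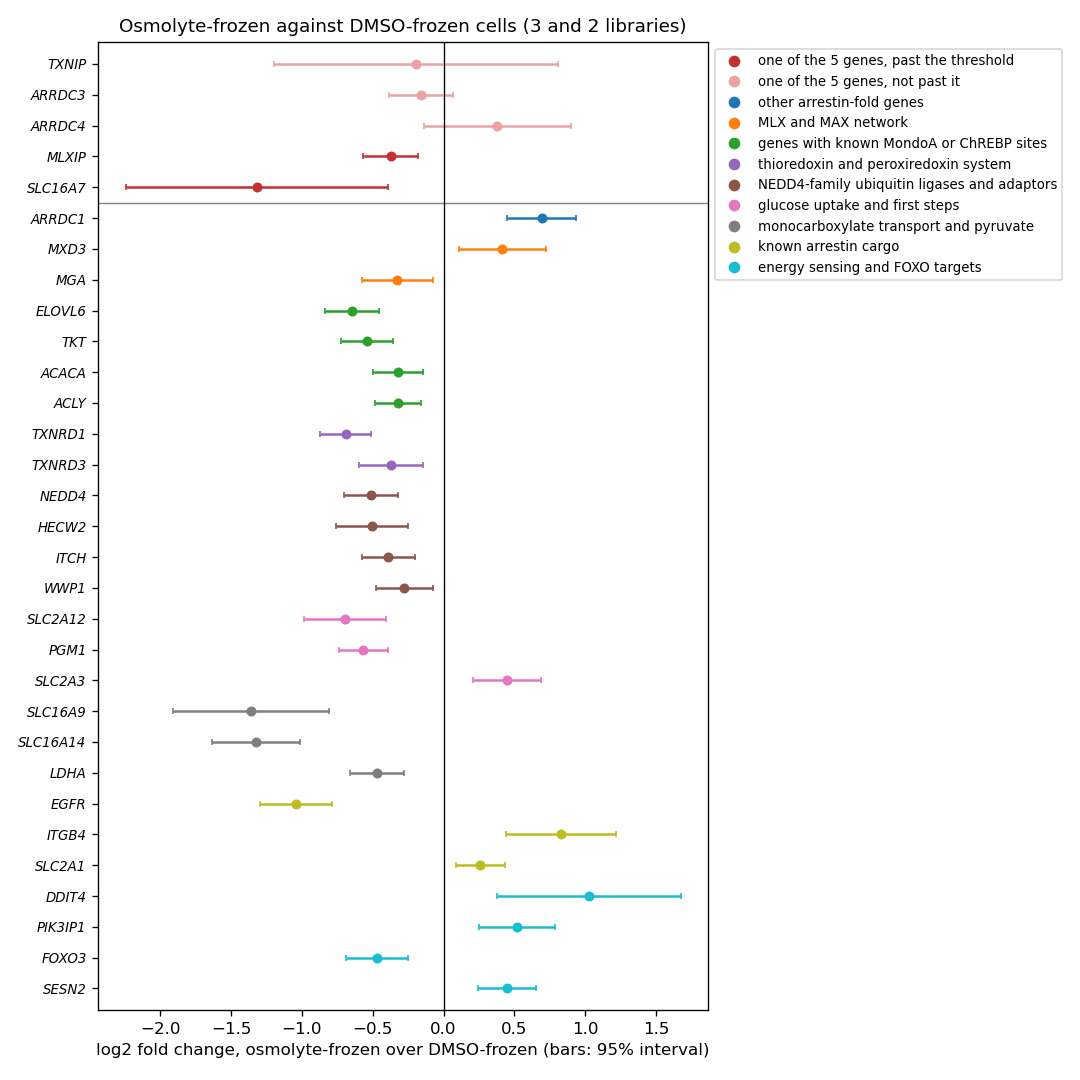
Log2 fold change of osmolyte-frozen over DMSO-frozen cells (x axis; 3 and 2 libraries) with 95% intervals from edgeR, for the 5 genes (above the grey line) and for genes named here from the 9 surrounding lists (below it). MLXIP at -0.37 and SLC16A7 at -1.32 lie below 0 with intervals that leave it out, and the intervals of TXNIP, ARRDC3 and ARRDC4 include it.

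The genes around these 5 were taken from 9 lists with 105 genes in all, of which 98 could be tested. The lists were chosen with earlier results of these data known, so their counts are a description only. In osmolyte-frozen against DMSO-frozen cells 27 of the 98 fell and 9 rose by edgeR, against 16.2% and 13.1% of all genes, and their median log2 change was -0.08 against 0.04 over all genes. The balance of directions over all genes rests on the scaling: 44.8% of calls were higher, and 56.4% with library totals alone. With library totals alone 20 of the list genes fell and 12 rose. With DMSO at 0 h left out of the frozen libraries, 14 list genes were lower and 1 higher by edgeR, the single DMSO-frozen library being taken to vary as the other groups did. Without SGC 4 were higher and 22 lower. Of the 28 genes the naming rule took from the lists, ARRDC1, ELOVL6, TKT, TXNRD1, NEDD4, SLC2A12, PGM1, SLC16A9, SLC16A14, EGFR and FOXO3 passed under all 15 alternatives, and 14 did not pass without the library in DMSO at 0 h.

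Among transporters of monocarboxylates and enzymes of pyruvate and lactate, 7 of 17 fell and 0 rose, against 16.2% and 13.1% of all genes. Their median log2 change was -0.13. SLC16A9 and SLC16A14, which like SLC16A7 are of the SLC16 family, fell 2.56-fold and 2.50-fold. SLC16A14 had 3.13, 3.44 and 3.51 CPM in SMC, SGC and SGI against 8.26 and 8.57 CPM in DMSO at 1 h and 0 h. Unlike SLC16A7, it stood at 6.75 CPM in fresh cells in medium, near its 7.79 CPM at 0 h. LDHA, the lactate dehydrogenase subunit that favours lactate formation, fell 1.38-fold.

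Of 9 tested genes with known sites for MondoA or ChREBP, 5 fell and 0 rose, against 16.2% and 13.1% of all genes. Their median log2 change was -0.23. ELOVL6, an elongase of fatty acids, fell 1.57-fold, from 39.995 ± 3.19 CPM (SD, n = 2) to 25.5 ± 1.38 CPM (SD, n = 3), with an edgeR adjusted p of 4.03e-05. TKT, the transketolase of the pentose phosphate pathway, fell 1.45-fold. ACACA and ACLY, which supply malonyl-CoA and acetyl-CoA for fatty acid synthesis, each fell 1.25-fold, and did not pass edgeR's test without DMSO at 0 h, at adjusted p of 0.0654 and 0.0532. The list had 1 gene higher and 1 lower in DMSO-frozen than in fresh cells by edgeR, which were SCD and TKT, against 1.22% and 0.603% of all genes.

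The MLX and MAX network, the factors that pair with or oppose MondoA and MYC, had 1 of 9 tested genes higher and 1 lower. Over all genes 13.1% were higher and 16.2% lower, so these counts are near background. MXD3, a repressor of the MAX network, rose 1.33-fold, with an edgeR adjusted p of 0.0396, and MGA, another partner of MAX, fell 1.25-fold, with 0.0484. Without DMSO at 0 h the edgeR adjusted p was 0.418 for MXD3 and 0.268 for MGA, and without SGI 0.139 and 0.0948. MLX did not pass, at 33.8 ± 0.297 CPM (SD, n = 2) in DMSO-frozen and 31.0 ± 0.513 CPM (SD, n = 3) in osmolyte-frozen cells. Among the other 5 genes of the arrestin fold, ARRDC1, an alpha-arrestin of budding vesicles, rose 1.62-fold by edgeR (adjusted p = 0.000239) and the other 4 did not pass. ARRDC1 had 15.6, 18.3 and 18.2 CPM in SMC, SGC and SGI and 11.2 and 10.4 CPM in DMSO.

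The ubiquitin ligases that alpha-arrestins bind, with their adaptors, had 5 of 10 tested genes lower and 0 higher. Over all genes 16.2% were lower and 13.1% higher. The median log2 change of the ligases and adaptors was -0.21. NEDD4 fell 1.43-fold, HECW2 1.42-fold, ITCH, which marks TXNIP for breakdown, 1.31-fold, and WWP1 1.21-fold. Without DMSO at 0 h the last 3 did not pass, with edgeR adjusted p of 0.0531, 0.0839 and 0.304. Of 13 genes of the thioredoxin and peroxiredoxin system 2 fell, near the 16.2% of all genes, and 0 rose, against 13.1%. TXNRD1, the cytosolic thioredoxin reductase, fell 1.61-fold and TXNRD3 1.29-fold, the latter with an edgeR adjusted p of 0.108 without DMSO at 0 h and 0.0513 without DMSO at 1 h. TXN, the thioredoxin that TXNIP binds, did not pass, with a mean of 112 ± 13.7 CPM (SD, n = 3) in osmolyte-frozen and 125 ± 11.3 CPM (SD, n = 2) in DMSO-frozen cells.

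In glucose uptake and its first steps, 5 of 12 genes fell and 2 rose, against 16.2% and 13.1% of all genes. The facilitative transporters went both ways. SLC2A12 fell 1.62-fold and PGM1, which links glycogen to glycolysis, 1.48-fold. SLC2A3, which encodes the glucose transporter GLUT3, rose 1.36-fold and SLC2A1 rose 1.20-fold. Without DMSO at 0 h their edgeR adjusted p was 0.094 and 0.254. Of 6 known cargo proteins of the arrestins, 2 rose and 1 fell, against 13.1% and 16.2% of all genes. ITGB4, the integrin beta 4 that ARRDC3 sorts, rose 1.78-fold (edgeR adjusted p = 0.0794 without DMSO at 0 h), and EGFR, the receptor for epidermal growth factor, fell 2.06-fold. SLC2A1, also cargo, had 124, 130 and 117 CPM in SMC, SGC and SGI against 108 and 98.2 CPM in DMSO.

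Among energy sensors and targets of FOXO factors, 4 of 20 tested genes rose and 2 fell, against 13.1% and 16.2% of all genes. DDIT4, an inhibitor of mTORC1 signalling, rose 2.03-fold, from 18.5 ± 1.72 CPM (SD, n = 2) to 37.6 ± 8.38 CPM (SD, n = 3), with an edgeR adjusted p of 0.0312. PIK3IP1, an inhibitor of PI3-kinase, rose 1.43-fold and SESN2, a sestrin, 1.36-fold, with edgeR adjusted p of 0.0912 and 0.0615 without DMSO at 0 h. FOXO3 itself fell 1.38-fold. Leaving out single libraries took the edgeR adjusted p of DDIT4 as high as 0.205, without DMSO at 0 h, and ended its call also without fresh cells at 0 h, SGC, SGI or DMSO at 1 h, at 0.0605 to 0.119.

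In the fresh libraries, no list gene with enough counts was lower by as much as 2-fold in medium, where TXNIP was low. Of 91 with enough counts, 2 were at least 2-fold higher in medium than at 0 h and 0 were at least 2-fold lower, where the background is 0.417% in each direction. Those 2 were KLF10 and KLF9, which encode Kruppel-like factors. KLF10 had 86.4 CPM at 0 h, 264 CPM in medium and 76.3 CPM with DMSO, so it was 3.06-fold higher in the library where TXNIP was 2.34-fold lower. KLF10 is itself on the list of genes with MondoA or ChREBP sites, and the other 8 tested genes of that list were less than 2-fold from 0 h. KLF9 was 2.16-fold higher in medium than at 0 h. With DMSO against medium 3 list genes with enough counts were at least 2-fold lower, which were KLF10, KLF9 and MYC. Among list genes with enough counts 0 were at least 2-fold higher. The background is 0.769% lower and 0.466% higher. MYC had 57.5 CPM at 0 h, 92.3 CPM in medium and 40.5 CPM with DMSO.

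Other genes with the pattern of each gene over the 8 libraries were found by the root mean square difference of log2 CPM, after subtracting each gene's own mean, among 10699 genes. This is a description over 8 libraries that share conditions. For TXNIP the nearest were KIAA1024 at a difference of 0.17, SIX4 at 0.20, ZNF550, ZNF555 and ABCA6 at 0.21, and PPP1R3C, PAK3 and NBEA at 0.23. SIX4 is a homeobox factor and ABCA6 a transporter of the ABC family. PPP1R3C targets protein phosphatase 1 to glycogen. All 8 had their lowest level in fresh cells in medium, which follows from choosing them for likeness to TXNIP, such as SIX4 at 27.7 CPM against 43.7 CPM at 0 h and 43.9 CPM with DMSO.

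**Figure D4:**
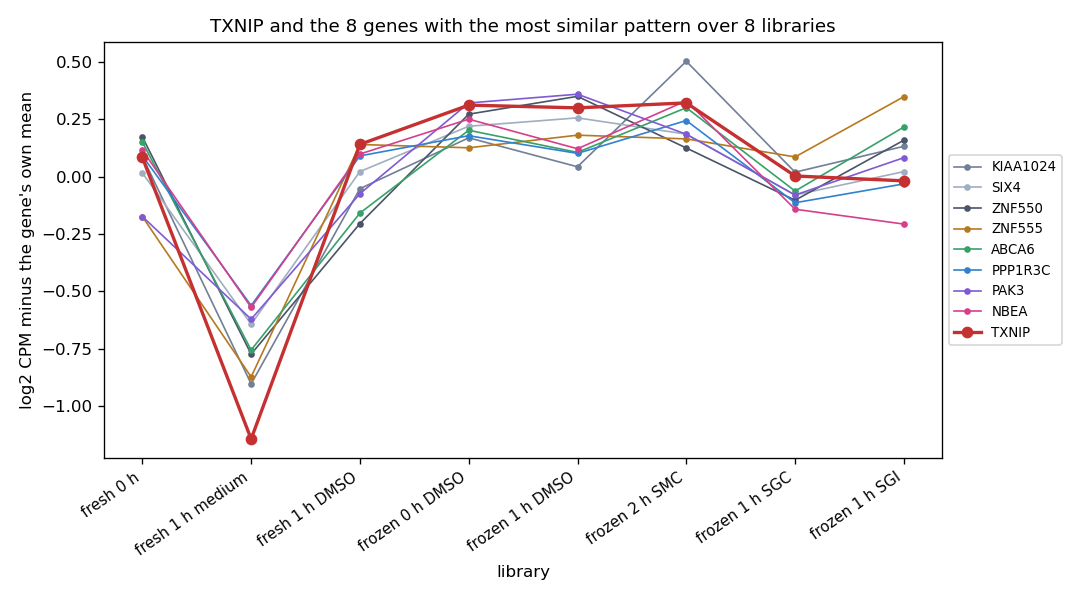
Log2 CPM minus each gene's own mean (y axis) in the 8 libraries (x axis; lines join values of 1 gene and stand for no order) for TXNIP and the 8 genes nearest to it. All 9 genes have their lowest level in fresh cells after 1 h in medium, and TXNIP has the deepest drop there. TXNIP was chosen with its value in medium in view and the 8 genes for likeness to it, so neither is a finding.

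SLC16A7 was nearest to LNPEP, an aminopeptidase of insulin-responsive vesicles, at 0.24, to CACNA2D1, a calcium channel subunit, at 0.24, and to MMP16, a membrane-bound matrix protease, at 0.26. CACNA2D1 had 45.5 CPM in fresh cells at 0 h, 22.1 CPM in medium and 42.0 CPM with DMSO, then 13.0 to 15.3 CPM in osmolyte-frozen and 33.6 and 33.7 CPM in DMSO-frozen cells. It was thus low in the same 4 libraries as SLC16A7. ARRDC4 was nearest to LRRN3 at 0.13, and to CGNL1 and SEMA5A at 0.16. SEMA5A, a semaphorin, had 78.2 CPM in fresh cells in medium and 233 CPM in SMC, the same lowest and highest libraries as ARRDC4.

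ARRDC3 was nearest to CCDC136 at 0.07, GNG11 at 0.08 and AUH at 0.08. MLXIP was nearest to PHF19 at 0.04, to CCNA2, the cyclin of S phase and G2, at 0.04, and to CDC20, an activator of the anaphase-promoting complex, at 0.05. CDC20 had 71.4 CPM in fresh cells at 0 h, 86.8 CPM in medium, 66.4 and 67.0 CPM in DMSO-frozen and 50.3 to 56.0 CPM in osmolyte-frozen cells. The highest level of MLXIP was 1.81 times its lowest, against 2.76 times for TXNIP and 3.12 times for SLC16A7.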

How the data were processed

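RNA sequencing of 8 libraries gave 1 table. The counts are whole numbers as the authors deposited them, not normalised, with 0 odd values. RPKM values, per the file headers scaled to the coding length, are also the authors' own and were used only to compare genes. The submitters' processing notes name CASAVA 1.9, TopHat, HTSeq and hg19. No annotation, strand setting or rule for read mates is named there. Of 23398 entries, identical repeats were kept once.

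Genes were filtered with filterByExpr by group, scaled by TMM and tested with edgeR 4.0.16 (R 4.3.3; glmQLFit, robust) as 3 groups in 1 model (5 residual degrees of freedom) at a threshold of 0.05. DESeq2 1.42.0, other scalings, no filter, frozen libraries alone, halved counts, matched hold time and leaving out each library were alternatives. Ratios of single libraries are differences of log2 CPM (prior count 2), without a test. Intervals of 95% on them are exact, assume that each unit was entered as 2 counts, all values being even, and cover counting error alone: without molecular identifiers, reads may be copies. Depth was 41198716 to 51166666 counts per library. Counts came to 64% to 66.9% of the total implied by the authors' RPKM in osmolyte-frozen libraries, and to 72.1% and 73% in DMSO-frozen ones. In fresh cells they came to 69.1% at 0 h, 70.4% with DMSO and 66.2% in medium. The part of this difference in the results was not tested.

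The 5 genes and the lists were chosen with earlier results of these data known. Named list genes were up to 4 per list with the largest change past the threshold and at least 1 CPM on the higher side. List genes with enough counts that were 2-fold apart between fresh libraries were also named. Of the genes this rule took, 2 are not reported here. MLX, MLXIPL, TXN and SCD, like GFPT1 and RCN3, fall outside this rule and were named after their values were seen. Pattern likeness used genes with a mean of at least 5 CPM, and 8 genes were named for TXNIP and 3 for each other gene. Of the list genes, 2 were matched through an older symbol in RefSeq. All 5 genes had an entry among the promoter sequences.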

Additional observations from a re-analysis of the deposited data

How the results depend on the processing

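Over the alternatives, MLXIP kept its call in osmolyte-frozen against DMSO-frozen cells, at -0.47 to -0.31, and TXNIP, ARRDC3 and ARRDC4 passed in 0 of 15. The log2 fold change of ARRDC4 turned to -0.00137 among frozen libraries held for 1 h, where a single DMSO-frozen library remains. That of SLC16A7 kept its direction but not its call with upper-quartile factors (-1.25, edgeR adjusted p = 0.0501), library totals alone (-1.26, 0.0531), no filter on low counts (-1.35, 0.0846) and libraries held for 1 h (-1.36, 0.310). The cause was not tested.

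Leaving out 1 library at a time, the log2 fold change ranged from -0.34 to -0.13 for TXNIP, -0.26 to -0.06 for ARRDC3, 0.13 to 0.56 for ARRDC4, -0.47 to -0.32 for MLXIP and -1.43 to -1.23 for SLC16A7. Genes called ranged from 780 to 2373 higher and 1342 to 2913 lower, against 2091 and 2579, and list genes from 1 to 12 higher and 14 to 29 lower. With libraries held for 1 h, 904 genes were higher and 1598 lower, and 2 and 17 list genes. With upper-quartile factors 14 list genes were higher.

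Ratios between single libraries stayed within their counting intervals under the other scalings and prior count. The genes of similar pattern were the same with library totals, 8 of 8 for TXNIP. Of the 28 list genes taken by the rule, none changed direction, and DDIT4, MGA, MXD3 and WWP1 lost their calls most often, in 5 to 9 of 15 alternatives. ARRDC4, with 66 to 208 counts per library, had the widest counting intervals on its ratios between single libraries. No paired analysis was possible because the labels carry no replicate numbers, and the hold times that fresh and DMSO-frozen cells share, 0 h and 1 h, were used only for ratios of single libraries.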
